A study of Mus musculus with 10 samples.

Results

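The genes described here are 8 transcription factor genes of the AP-1 family and its neighbours, Atf3, Jun, Junb, Jund, Fosl1, Fosl2, Maff and Mafk, out of 34254 genes counted in mouse retinal ganglion cells (RGCs). They were chosen by name with the change after injury already known, so the injury values were among those that chose them and are given as a description, with no test. All 8 were found by symbol, once each. The cells came from 12-week-old wild-type mice of strain 129S1/SvImJ and of both sexes, either with an intact optic nerve (6 libraries, uninjured) or 2 weeks after optic nerve crush (4 libraries, injured). Retinas were pooled, 10 per batch, RGCs were caught on plates coated with an antibody to Thy1 after macrophages had been removed in the same way, and 6000 cells of each batch went into droplet capture. The labels' design also names FACS, which the paper's methods name for other experiments but not for these cells, so whether and on what they were sorted is unknown. Each library is therefore a pool of animals, and the cells of 1 library are not independent samples.

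AP-1 factors bind DNA as pairs held together by a leucine zipper. Jun proteins pair with one another, with Fos proteins or with ATF proteins such as ATF3. The small Maf proteins have the zipper but no activation domain of their own and can take partners from other families. In neurons whose axon is cut, JNK kinases phosphorylate JUN, and Jun and Atf3 are known as injury genes of peripheral sensory neurons and of RGCs.

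Uninjured 1 to 6 contributed 98, 103, 363, 651, 267 and 201 cells. Injured 1 to 4 contributed 338, 273, 527 and 471, in all 1609 cells with 1188 distinct barcodes. The paper's number of uninjured cells is the same as in the files, but its number of injured cells lies between the cells and the barcodes and matches neither. Every cell of every library had a UMI, the tag of 1 captured RNA molecule, of the pan-RGC genes Rbpms, Slc17a6, Sncg and Tubb3, as a selection on these genes would leave. Pou4f1, a further RGC marker, was found in 89.1% to 94.9% of cells of the uninjured libraries and in 53.1% to 67.8% of cells of the injured ones. Total UMIs per library were 2839693 to 23180399 in the uninjured and 4698799 to 8860536 in the injured group. The median cell held 20437 to 34337 UMIs in uninjured and 11257 to 14695 in injured libraries, so injured cells held fewer UMIs.

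Several libraries do not stand as independent samples of their group. Injured 3 and injured 4 shared 421 cell barcodes, against at most 1 in any other pair. They were therefore averaged and are called injured 3/4, so that 6 samples stand for the uninjured and 3 for the injured group. Uninjured 1 and 2, 3 and 4, 5 and 6, and injured 1 and 2 were also far closer to each other than to the rest of their group, with a median squared difference per gene of 1.44 to 2.10 times counting noise within these pairs, against 3.46 to 16.0 times between other uninjured and 4.13 to 4.36 times between other injured libraries. Reads of the reporter mCherry, which no label names, were found in 7.99% and 15.0% of cells of injured 1 and 2, in 86.0% and 84.3% of cells of injured 3 and 4, and in 0 of 1683 uninjured cells, which allows a share of up to 0.178%. The paper's control was a virus carrying mCherry, injected into the eye before crush, but the paper names no virus for the cells described here. An effect of such a virus could not be told apart from injury when the groups are compared. Xist, the RNA of the inactive X chromosome of females, was found in 62.1% of cells of injured 1 and 67.4% of injured 2, and elsewhere in no more than 0.569% of a library's cells. The uninjured libraries and injured 3 and 4 were thus nearly without cells that hold Xist, although the labels state both sexes.

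Levels are given as CPM, UMI counts summed over the cells of a sample, per 1000000 UMIs of a library size set by edgeR's TMM factors. In a test of 14234 genes by edgeR at an adjusted p under 0.05, 21.3% were called higher and 22.7% lower in injured RGCs. Every injured sample was above every uninjured sample for 21.9% of genes and below for 21.1%. All 8 members passed the filter on low counts, Atf3 and Fosl1 through the injured samples. For 5 of the 8, Atf3, Jun, Fosl1, Fosl2 and Mafk, the injured samples lay above all uninjured ones. For the other 3, Junb, Jund and Maff, the groups overlapped.

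Atf3 encodes the ATF3 protein, which binds DNA with a JUN partner or as a pair of its own kind. Its level in uninjured RGCs was 0 CPM in the lowest library, 0.577 CPM at the median and 2.51 CPM in the highest, uninjured 4. In injured RGCs it was 802, 835 and 761 CPM. The groups were far apart, the 3 injured samples were close to each other, and uninjured 1 had no Atf3 count, which allows up to 1.06 per 1000000 total UMIs, a limit that leaves out the TMM factor. The log2 fold change was 9.38 (SE 0.44), and 9.43 without injured 3/4. Its size depends on the few uninjured cells with Atf3, since the value was 10.51 without uninjured 4, and 10.72 when 5 uninjured cells with at least 3 Atf3 UMIs were left out, a setting chosen after the data were seen. Atf3 was also abundant cell by cell. In cells thinned at random to 8000 UMIs each, the median injured cell held 5, 4 and 4.5 Atf3 UMIs in injured 1, 2 and 3/4, and the 90th percentile was 13.5, 13 and 13 UMIs.

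Jun encodes c-JUN, the JNK substrate and main partner of both the Fos and the ATF proteins. Its uninjured level was 43.8 CPM at the lowest, 54.8 CPM at the median and 93.9 CPM at the highest. The injured samples had 544, 532 and 455 CPM. The groups did not overlap, but unlike Atf3, Jun was present before injury, and uninjured 5 and 6 (93.9 and 89.5 CPM) stood above the other 4 uninjured libraries (43.8 to 55.4 CPM). The log2 fold change was 2.99 (SE 0.24), and 3.09 without injured 3/4. The median cell held 0 Jun UMIs per 8000 in each of the 6 uninjured samples and 4, 4 and 3 in injured 1, 2 and 3/4. On the genome, 528 of the 3189 exon bases of Jun are also exon bases of Junos, a long noncoding RNA of the opposite strand. Junos was low and its groups overlapped, with 7.02 to 17.5 CPM in uninjured and 8.31 to 11.3 CPM in injured samples. Whether reads were assigned by strand is not given in the sources used here, so it is unknown whether Jun and Junos reads in those bases were kept apart.

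Among the pairs of members, Atf3 and Jun had the highest correlation across injured cells in the mean of the 3 samples, so the 250 bases before their starts are printed. They were read from mm39 (GRCm39) before the start of the canonical transcript, on the coding strand, 5′ to 3′. Atf3 has 4 exons and further starts upstream, and its window is chr1:190915538-190915787 on the reverse strand. Jun has a single exon, and its window is chr4:94940460-94940709, also on the reverse strand. Capitals mark the matches.
Atf3: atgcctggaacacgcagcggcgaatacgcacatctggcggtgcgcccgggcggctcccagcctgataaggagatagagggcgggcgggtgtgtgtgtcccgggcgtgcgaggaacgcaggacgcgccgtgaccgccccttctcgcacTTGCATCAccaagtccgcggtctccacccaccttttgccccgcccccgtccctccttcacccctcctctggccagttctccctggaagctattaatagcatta
Jun: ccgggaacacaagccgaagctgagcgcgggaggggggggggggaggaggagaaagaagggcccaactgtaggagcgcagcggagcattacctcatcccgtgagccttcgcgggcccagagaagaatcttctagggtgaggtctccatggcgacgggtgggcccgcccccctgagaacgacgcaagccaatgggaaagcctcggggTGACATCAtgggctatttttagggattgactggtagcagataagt
The letters searched on both strands were TGACTCA (the AP-1 site), TGACGTCA (the CRE, the site of ATF and CREB proteins), TGACATCA (the form in the Jun window) and TGATGCAA (a C/EBP-ATF composite form), the last 2 chosen after the promoters had been read. The Atf3 window holds TGATGCAA on the opposite strand, where it reads TTGCATCA, at 103 to 96 bases before the start. The Jun window holds TGACATCA at 45 to 38 bases before the start. TGACGTCA was found in the windows of Jund and Maff, and TGACTCA in 0 of the 8. Of 21770 promoters of the same length, 4.02% hold TGACTCA, 1.69% TGACGTCA, 2.61% TGACATCA and 0.887% TGATGCAA. A match is only a run of letters, and binding was not measured.

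For the other Jun genes the groups overlapped. JUNB pairs like c-JUN but activates AP-1 sites more weakly. Junb had 16.6 CPM in the lowest uninjured library, 57.9 CPM at the median and 81.6 CPM in the highest. Its injured samples had 32.7, 46.5 and 59.1 CPM, inside the uninjured range. Uninjured 3 and 4 had 16.6 and 19.99 CPM and the other 4 had 56.3 to 81.6 CPM, but 1 cell held 37 of the 167 Junb UMIs of uninjured 1 and 1 cell held 66 of the 212 of uninjured 2. Junb had a log2 fold change of -0.12 (SE 0.46), within its SE, and -0.32 without injured 3/4. Its sign was not stable either, being 0.16 with cells thinned to 8000 UMIs, 0.08 without uninjured 5, and 0.64 with libraries 1 to 4 alone and their number as a block.

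JUND is the Jun protein present in most resting cells. Jund had 232 CPM in the lowest uninjured library, 270 CPM at the median and 590 CPM in the highest. Its injured samples had 468, 515 and 850 CPM. Uninjured 5 and 6 (589 and 590 CPM) lay above injured 1 and 2, so the groups overlapped, and injured 3/4 alone was above them all. For Jund the log2 fold change was 0.75 (SE 0.35), and 0.46 without injured 3/4, the sample on which much of the difference rested. It was 1.41 when libraries 5 and 6 were not used and injured 3 and 4 stood as separate samples.

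The Fos-like members rose from low levels. FOSL1 (FRA-1) and FOSL2 (FRA-2) pair with Jun proteins but lack the strong activation domain of FOS. Fosl1 had 0 CPM in uninjured 1 and 2, which allows up to 1.06 and 0.876 per 1000000 total UMIs, a median of 0.205 CPM and at most 0.451 CPM. The injured samples had 3.68, 3.82 and 2.69 CPM. The groups did not overlap, but the counts behind these values were few, 0 to 7 UMIs in an uninjured and 16 to 24 in an injured library. The log2 fold change of Fosl1 was 3.59 (SE 0.44), and 3.77 without injured 3/4.

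Fosl2 had 2.51 CPM in the lowest uninjured library, 3.62 CPM at the median and 9.25 CPM in the highest. Its injured samples had 19.4, 16.6 and 17.2 CPM. The injured samples were close together and above uninjured 2, whose 9.25 CPM stood apart from the 2.51 to 4.04 CPM of the rest and included 1 cell with 10 of its 33 UMIs. Fosl2 had a log2 fold change of 2.14 (SE 0.32), 2.18 without injured 3/4 and 2.47 without uninjured 2.

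The small Maf genes differed from each other. MAFF and MAFK pair with the CNC factors, such as those made by Nfe2l2 and Bach1, at antioxidant response elements. Maff had 1.40 CPM in the lowest uninjured library, 1.96 CPM at the median and 3.17 CPM in the highest. Its injured samples had 2.28, 3.14 and 2.42 CPM, inside the uninjured range. For Maff the log2 fold change was 0.38 (SE 0.31), and 0.45 without injured 3/4.

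Mafk had 1.66 CPM in the lowest uninjured library, 1.77 CPM at the median and 2.18 CPM in the highest, the narrowest uninjured range among the members in proportion to its level. Its injured samples had 10.7, 7.41 and 9.67 CPM. All injured samples were above all uninjured ones. The log2 fold change of Mafk was 2.29 (SE 0.21), and 2.28 without injured 3/4.

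**Figure D1:**
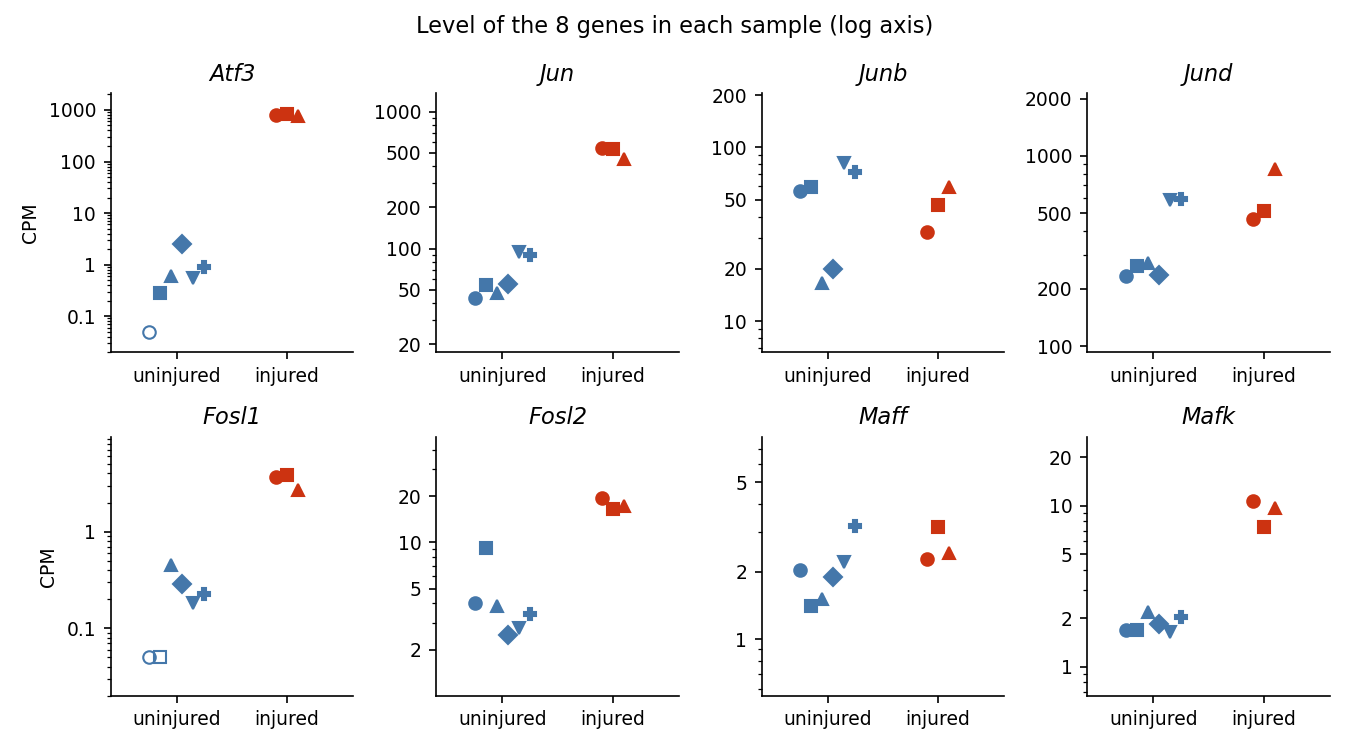
Level of each gene in CPM (log axis) in the 6 uninjured samples (blue, 1 to 6 from left to right) and the 3 injured samples (red, injured 1, 2 and 3/4), 1 symbol per sample; open symbols mark a count of 0 and are drawn at 0.05. Atf3, Jun, Fosl1, Fosl2 and Mafk have no overlap between the groups, and Junb, Jund and Maff overlap.

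The share of cells with a UMI depends on depth, so it was taken in cells thinned to 8000 UMIs. This left out 29 uninjured cells and 233 injured cells with fewer UMIs and kept 1654 and 1376. No cell type that should lack these genes is in the files, so the share that free RNA in the droplets would give is unknown, and low shares are not read as expression. Atf3 was found in 87.6%, 88.8% and 85.2% of injured cells (unthinned 90.8%, 89.7% and 84.7%), and in 0% to 0.932% of uninjured cells (unthinned 0% to 2.46%). A share of 0 in uninjured 1, 2 and 5 allows up to 3.16%, 2.94% and 1.19% of thinned cells. Most injured cells therefore held Atf3, and 11.2% to 14.8% had none at this depth.

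Jun was found in 94.4%, 94.4% and 92.1% of injured cells, against 18.9% to 37.2% of uninjured cells. Unthinned, the uninjured share of Jun was 54.1% to 62.1% and the injured share 95.6% to 97.4%. Jund was found in 70.5% to 98% of uninjured and 95.2% to 97.6% of injured cells, which overlap. At 8000 UMIs the injured shares of Jund leave little room to differ. At 4000 UMIs they were 79.8%, 84.5% and 90.5%, highest in injured 3/4, against 55.7% to 89% of uninjured cells. The mean Jund count was 3.74 and 4.03 UMIs per 8000 in injured 1 and 2 and 6.73 in injured 3/4. Junb was found in 9.80% to 29.6% of uninjured and 18.3% to 26.3% of injured cells (unthinned 28.2% to 47.3% and 28.1% to 40.3%), which overlap. By share, uninjured 5 and 6 (29.6% and 26.5%) stood above the other uninjured libraries (9.80% to 12.6%).

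The remaining members were each found in a minority of cells. Fosl2 was found in 10.5%, 12.0% and 10.8% of injured cells and in 1.24% to 5.88% of uninjured cells (unthinned 18.8% to 21.01% and 4.12% to 11.7%). Mafk was found in 7.52%, 6.77% and 6.19% of injured cells and in 0.395% to 1.96% of uninjured cells (unthinned 10.99% to 12.7% and 3.37% to 6.89%). Fosl1 was found in 2.61%, 1.59% and 1.66% of injured cells and in at most 0.5% of uninjured cells (unthinned 3.29% to 5.92% and at most 1.38%). For Maff, 1.31% to 1.78% of injured cells and 0.980% to 4.21% of uninjured cells held a UMI (unthinned 3.25% to 3.66% and 4.49% to 6.12%). The means of both go against the CPM, but at 4000 UMIs the injured mean was higher by 0.111 percentage points. No order is read from these shares.

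**Figure D2:**
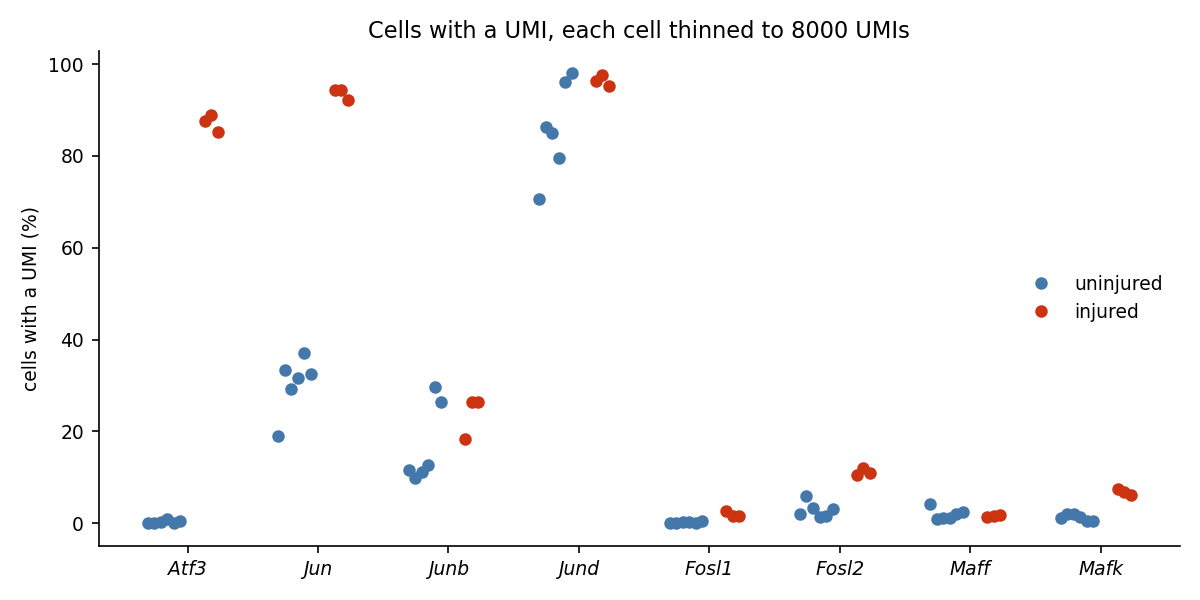
Percent of cells with at least 1 UMI of each gene in the uninjured (blue, 6 samples) and injured (red, 3 samples) group, each cell thinned to 8000 UMIs, 1 point per sample. Atf3 goes from at most 0.932% to at least 85.2% of cells, Jund is found in 70.5% to 98% of uninjured and 95.2% to 97.6% of injured cells, and Fosl1, Fosl2, Maff and Mafk stay under 12.0%.

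Which members were found together in the same cell was measured within each injured sample, as the log2 odds ratio of both genes having a UMI. A value above 0 means that cells with 1 of the genes held the other more often than cells without it. It is given only where each of the 4 cells of the table had an expected count of at least 5, which 2 of the 28 pairs met in all 3 injured samples. On average over the injured samples 82.5% of thinned cells held both Atf3 and Jun, so too few cells lacked either gene for that pair at 1 UMI. With a gene called present at 2 or more UMIs, 65.7% of injured cells held both, and the log2 odds ratio of Atf3 and Jun was 1.42, 1.09 and 0.81. All 3 samples were above 0, with a mean of 1.10 and an SD of 0.30. With cells thinned to 4000 UMIs and 1 UMI as the limit, the mean was 0.65.

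Other pairs were read in the same way. At 2 or more UMIs, Atf3 and Jund had -0.91, 0.26 and 1.44. Jun and Jund had 0.09, 0.56 and 2.14, with injured 3/4 highest again. At 1 UMI, Junb and Fosl2 had 1.88, 1.28 and 0.11, all above 0, with both genes in 4.13% of cells. Atf3 and Junb had 0.29, -1.23 and -0.78 and so no common direction. Junb and Fosl2 could not be given in any uninjured sample in this setting. Unthinned, where depth differs between cells, that pair had 1.41, 1.25 and 0.55 in injured samples. It had 1.59, 0.92, 1.66 and 0.38 in uninjured 3, 4, 5 and 6, so it was found together before injury as well. Which pairs could be given changed with depth. At 4000 UMIs, Jun and Jund had 0.59, 0.61 and 1.10 and Junb and Jund 0.84, 1.26 and 1.34, with means of 0.77 and 1.15 that were above the mean of Atf3 and Jun there. In uninjured 1 to 6 Jun and Jund had 1.15, 0.79, 0.75, 0.70, 2.25 and 1.10 at that depth, so at 4000 UMIs these genes were found together before injury as well. Junb and Jund had 2.22, -0.41, 0.32 and 1.37 in uninjured 1, 3, 4 and 5, the samples where it could be given. At 8000 UMIs Jun and Jund could be given in uninjured 1, 3 and 4, with 3.20, -0.04 and 0.51. Unthinned, where depth differs between cells, Fosl2 and Mafk had 1.72, 1.35 and 0.94, and Atf3 and Jun could not be given in any injured sample. At 4000 UMIs Atf3 and Jun were thus not the strongest pair. Over the thinned cells of each injured sample (306, 251 and, in injured 3 and 4 together, 819), Spearman's correlation of Atf3 and Jun UMIs was 0.183, 0.206 and 0.220. The means of the other 27 pairs lay between -0.0802 and 0.1197, though Jun and Jund in injured 3/4 (0.247) and Junb and Fosl2 in injured 1 (0.203) were above Atf3 and Jun. In counts as sparse as these, such values describe the cells and are no finding, and they carry what cells of 1 library share.

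The injured cells were next grouped by their Atf3 UMIs per 8000. Cells with no Atf3 numbered 38, 28, 71 and 51 in injured 1 to 4, cells with 1 to 4 UMIs 110, 103, 181 and 128, and cells with at least 5 UMIs 158, 120, 208 and 180. Jun was high in all of them. Cells without Atf3 held 3.45, 2.93 and 2.52 Jun UMIs per 8000 on average, against 0.295 to 0.846 in all cells of the uninjured libraries. With 1 to 4 Atf3 UMIs the Jun means were 4.12, 3.95 and 3.50. With at least 5 they were 4.82, 4.41 and 4.00. In each injured sample Jun was thus higher with more Atf3, and most of its distance from the uninjured libraries was there in cells without an Atf3 UMI. Other values moved with the Atf3 groups. From no Atf3 to at least 5 UMIs, median UMIs per cell before thinning went from 14677.5 to 16483.5, 13482 to 16654.5 and 11568 to 16893.2 in injured 1, 2 and 3/4. The median mitochondrial share went from 2.38% to 3.34%, 2.61% to 3.52% and 1.53% to 1.61%. Of the RGC genes read in these groups, Thy1 went from 2.05, 1.79 and 1.92 to 4.15, 3.81 and 3.61 UMIs per 8000 and Rbpms from 3.58, 3.71 and 4.44 to 2.06, 2.09 and 2.32. The part of these in the differences between the groups was not tested.

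Jund did not differ by Atf3 in the same way, with 4.08, 4.04 and 5.98 UMIs per 8000 in cells without Atf3 and 3.71, 3.98 and 7.18 in cells with at least 5. The Junb mean was higher without Atf3 than with at least 5 UMIs, with 0.237, 0.714 and 1.27 against 0.215, 0.375 and 0.432 UMIs, by little in injured 1. Injured 1 had its highest mean, 0.264, with 1 to 4 Atf3 UMIs. Its share of cells with Junb was 15.8% without Atf3 and 17.7% with at least 5 UMIs. Over all injured cells, Spearman's correlation of Atf3 and Junb was 0.0002 to 0.031 in the 3 samples. Fosl2 was found in 13.3% of injured cells without Atf3 and 11.2% of those with at least 5 UMIs, means over the samples that differ by less than the SD of 3.95 percentage points among the former. Mafk was found in 7.89%, 3.57% and 1.96% of those without Atf3 and 7.59%, 8.33% and 7.22% of those with at least 5 UMIs, with injured 1 the other way round.

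Some genes outside the family were read by Atf3 in the same way. Sprr1a, which encodes a small proline-rich protein of regrowing neurons, was found in 10.5%, 7.14% and 9.96% of injured cells without Atf3. It was found in 51.9%, 46.7% and 45.1% of those with at least 5 Atf3 UMIs. Gap43, which encodes a protein of growing axon tips, went from 11.2, 10.5 and 7.998 UMIs per 8000 to 24.1, 23.5 and 22.1. Sox11, a transcription factor gene, went from 6.53, 5.21 and 5.04 to 9.63, 9.21 and 8.27. The other direction was seen for Creb5, which encodes a bZIP factor and went from 2.37, 2.39 and 2.32 to 1.33, 1.3 and 1.29. The share of cells with Fos went from 13.2%, 21.4% and 20.9% to 4.43%, 5.00% and 1.52%. With 1 to 4 Atf3 UMIs, Fos was found in 3.64%, 2.91% and 4.67% of cells, and Sox11 had 8.93, 9.10 and 8.85 UMIs per 8000. For both, most of the difference thus lay between cells without Atf3 and cells with 1 to 4 UMIs. Gap43, Sox11, Creb5 and Fos were chosen for this comparison after their values were seen, so they do not stand for genes outside the family as a whole. Cells with UMIs of at least 3 markers of another retinal class made up 21.1%, 14.3% and 0.980% of the cells without Atf3 and 5.06%, 10.8% and 3.48% of those with at least 5. Their part in these differences was not tested.

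**Figure D3:**
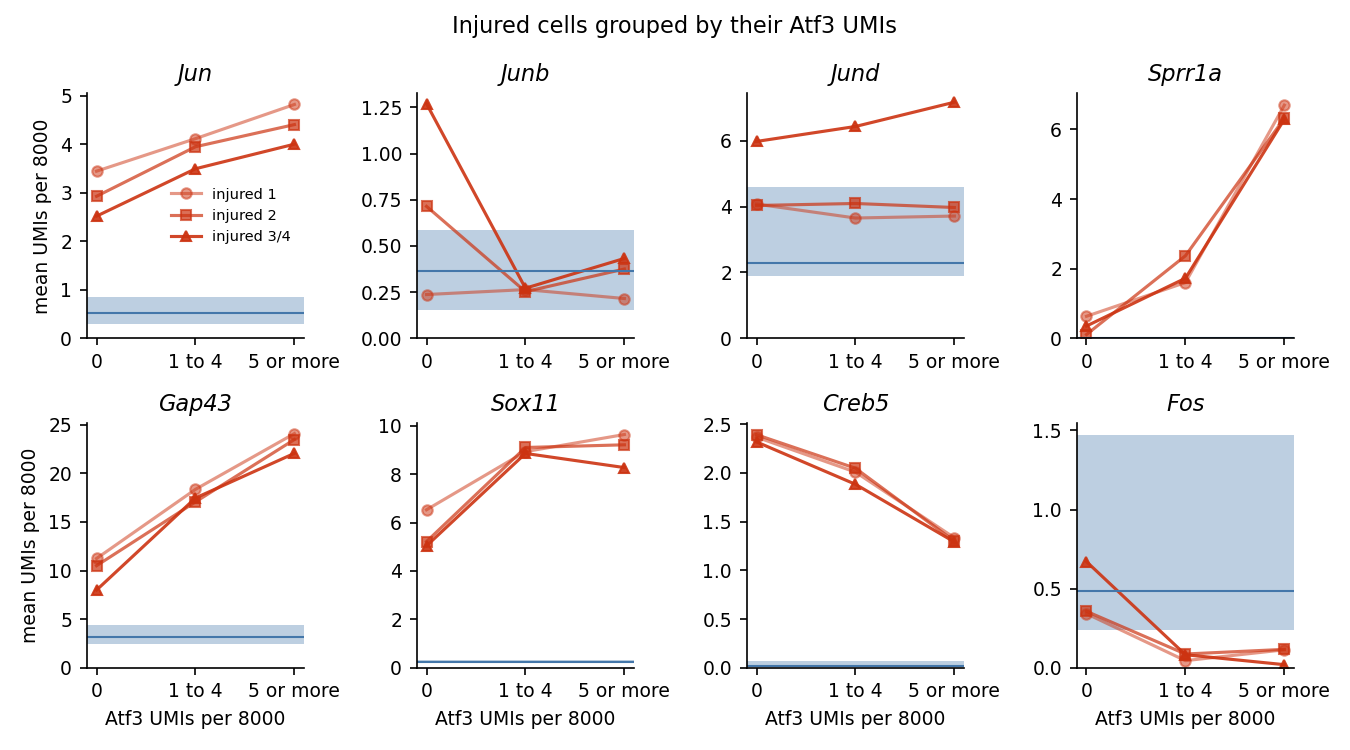
Mean UMIs per 8000 of 8 genes in injured cells with 0, 1 to 4, or 5 or more Atf3 UMIs per 8000, 1 line per injured sample; the blue band spans the means of all cells of the 6 uninjured libraries and the blue line is their median. Jun, Sprr1a and Gap43 are higher with more Atf3 in all 3 samples, and Creb5 is lower.

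Over the same injured cells, 5206 genes found in at least 20% of cells of every injured library were ordered by their mean Spearman correlation with Atf3. The 8 highest were S100a10 (0.456), Tmsb4x (0.453), Cd63 (0.431), Gap43 (0.430), Gadd45a (0.406), Ctsb (0.398), Actg1 (0.397) and Uqcrq (0.392). Jun stood at place 193 of 5206 and Sprr1a at place 15. For Jun the 8 highest were Stmn2 (0.251), S100a10 (0.245), Tmsb4x (0.243), Stmn3 (0.233), Cfl1 (0.231), Selenow (0.227), Ubb (0.226) and Txn1 (0.224), with Atf3 at place 13. S100a10 and Tmsb4x were on both lists, and the correlations with Jun were the lower ones.

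RGCs are of many types, and Atf3 was not equal among cells that hold genes of these types. Injured cells with at least 2 UMIs per 8000 of such a gene were compared with all other injured cells of the sample. Opn4, which encodes melanopsin and marks intrinsically photosensitive RGCs, marked 53 cells, 9, 9, 20 and 15 in injured 1 to 4. They held 0.667, 0.889 and 1.08 Atf3 UMIs per 8000, against 5.90, 5.86 and 5.74 in the other cells. Atf3 was found in 22.2%, 22.2% and 11.7% of them. Jun in these cells was 1.78, 2 and 2.66 UMIs, against 4.48, 4.13 and 3.63. Both genes were thus lower in Opn4 cells of every injured sample, Atf3 by more. In uninjured libraries 52 Opn4 cells held no Atf3 UMI and the Jun means were 0 to 0.5, so both values were higher in injured Opn4 cells. Free RNA in injured droplets could hold Atf3 and its part was not tested, so these low Atf3 values are not read as expression. The 32 injured cells with Eomes, a transcription factor gene of the same RGC types (58 in uninjured libraries), were alike, with 0, 1 and 0.472 Atf3 UMIs.

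Cells with Cartpt, which encodes a neuropeptide and marks direction-selective RGCs among others, were 35 in injured and 610 in uninjured libraries. The 35 held 3, 2.13 and 1.78 Atf3 UMIs per 8000. The 58 injured cells with Tfap2d (137 uninjured) held 3.82, 2.86 and 4.64. Both groups were under the other cells of each sample, which held 5.58 to 5.82. At the other end, 79 injured cells with Spp1 (22 uninjured), which encodes osteopontin and is high in alpha RGCs, held 8, 7.29 and 7.72 Atf3 UMIs, and 110 injured cells with Foxp2 (272 uninjured) held 6.27, 8.06 and 6.04. Jun in Spp1 cells, at 3.25, 5 and 3.50, was not above the other cells in all samples. Tbr1, Neurod2 and Zic1 marked 4, 1 and 0 injured cells, too few to describe, against 25, 60 and 65 uninjured ones. Several of these genes thus marked a smaller share of cells after injury, and injured cells that hold one need not be the same types as uninjured cells that do. These are cells with a gene's UMIs, not types called by a whole profile, and several groups hold under 20 cells in a library. The totals add the 4 libraries, so a cell shared by injured 3 and 4 can count in each.

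**Figure D4:**
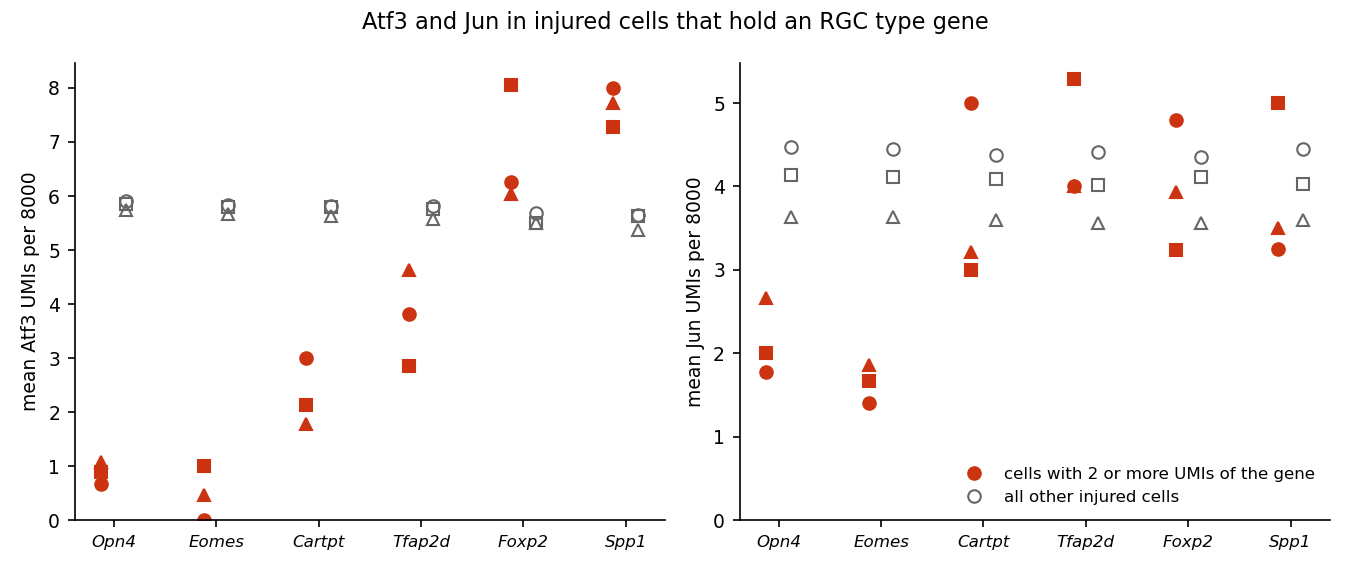
Mean Atf3 (left) and Jun (right) UMIs per 8000 in injured cells with at least 2 UMIs of each gene on the horizontal axis (red) and in all other injured cells (open grey); circles are injured 1, squares injured 2 and triangles injured 3/4. Cells with Opn4 or Eomes hold at most 1.08 Atf3 UMIs on average, against 5.67 to 5.90 in the others.

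Because the injured libraries differ in Xist and mCherry, Atf3 and Jun were also read by these. Cells with Xist held 5.37 Atf3 UMIs per 8000 in injured 1 and 5.07 in injured 2, and cells without it 6.39 and 6.93. Cells with mCherry held 5.50 in injured 1, 5.68 in injured 2, 5.74 in injured 3 and 5.87 in injured 4, and cells without it 5.77, 5.68, 2.62 and 4.45. For Jun the values with mCherry were 3.88, 4.94, 3.72 and 3.76, and without it 4.45, 3.92, 2.29 and 2.69. Atf3 was present in each of these groups of injured cells, and what separates cells with and without mCherry in injured 3 and 4 was not tested.

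Lists of related genes give the setting of the 8. The lists were chosen with results of these data known, so their counts are a description, to be read beside the 21.3% higher and 22.7% lower among all genes tested by edgeR. Of 29 other bZIP genes, the class that shares the basic region and zipper, 24 were tested by edgeR, of which 13 were higher (54.2%) and 4 lower (16.7%) in injured RGCs. Their median log2 fold change was 0.60, against -0.03 over all genes tested. The 6 largest rises among those with a mean of at least 10 CPM were Creb5 (5.93), Atf5 (3.93), Ddit3 (3.62), Cebpb (2.26), Bach1 (2.24) and Atf4 (2.12), on the log2 scale. Ddit3, which encodes the stress factor CHOP, had 42.3 to 48.1 CPM in uninjured and a mean of 556 CPM in injured samples (edgeR adjusted p 2.4e-09). Atf4, which acts upstream of it in the integrated stress response, had 56.6 to 101 and a mean of 318 CPM (8.9e-06 by edgeR). The 2 falls named by the same rule were Fos (-2.40) and Jdp2 (-0.90), and Jdp2 encodes a repressor that pairs with Jun proteins. Jdp2 missed the threshold without injured 1 (edgeR adjusted p 0.0733), without injured 2 (0.0643), with the replicate block (0.0649) and with similar libraries summed (0.0763). Fos, the founding partner of Jun, had 32.4 CPM at the lowest, 57.7 CPM at the median and 192 CPM at the highest in uninjured samples and a mean of 16.6 CPM in injured ones (edgeR adjusted p 0.0049). Fos thus fell in every injured sample below every uninjured sample while Fosl1 and Fosl2 were higher.

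Of 19 genes of the JNK pathway and Jun turnover, all tested by edgeR, 8 were higher (42.1%, against 21.3% of all genes) and 4 lower (21.1%, against 22.7%), with a median log2 fold change of 0.10. The rises were led by phosphatase genes of MAP kinases, Dusp16 (2.91), Dusp10 (2.14), Dusp1 (1.57) and Dusp8 (0.96), followed by the scaffold gene Mapk8ip1 (0.76) and the JNK gene Mapk8 (0.60). The other JNK genes fell, Mapk10 (-0.90) and Mapk9 (-0.66), as did the JNK activator gene Map2k7 (-0.68). The groups overlapped for Map2k7, which missed the threshold without injured 2 (edgeR adjusted p 0.0530) and with similar libraries summed (0.0627). Map3k12, which encodes the axon injury kinase DLK, had a log2 fold change of -0.15 (edgeR adjusted p 0.370), with overlapping groups. Map3k13, which encodes its relative LZK, had -0.43 (edgeR adjusted p 0.0433) and missed the threshold in 11 of 21 alternatives, so its call depends on the setting. RNA levels do not measure kinase activity, and phosphorylation was not measured here.

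Of 20 injury response genes, 19 were tested by edgeR, and 19 were higher and 0 lower, against 21.3% and 22.7% of all genes, with a median log2 fold change of 3.48. These genes were listed because they are known to rise in injured neurons, and nothing is read from the count. The 6 largest named by the rule were Sprr1a, Ecel1, Hrk, Tnfrsf12a, Crh and Sox11. Sprr1a had at most 0.184 CPM in an uninjured library and a mean of 811 CPM in the injured samples. Hrk, which encodes a pro-death BH3 protein under JUN control in other neurons, had at most 1.35 and a mean of 254 CPM. No p is given for these genes, which were listed for their rise and, where nearly absent in uninjured samples, passed the filter on low counts through the injured ones. Ecel1 went from at most 1.10 to 843 CPM, Tnfrsf12a from at most 6.25 to 491 CPM, Crh from at most 1.47 to 76.4 CPM and Sox11 from at most 35.7 to 1084 CPM, as injured means.

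Immediate early genes can be switched on while tissue is taken apart, and several members belong to that response in other tissues. Of 17 such genes, 14 were tested by edgeR, of which 4 were higher (28.6%, against 21.3% of all genes) and 5 lower (35.7%, against 22.7%) in injured RGCs, with a median log2 fold change of -0.39. Among those with a mean of at least 10 CPM, the largest rises were Egr1 (2.24), Ier2 (2.03) and Dusp1 (1.57), and the largest falls Fos (-2.40), Nr4a1 (-2.28) and Ier3 (-2.01). Their summed level was 231, 191, 151, 191, 526 and 477 CPM in uninjured 1 to 6 and 274, 313 and 418 CPM in the injured samples, and Egr2 had no count in injured samples. Uninjured 5 and 6, the libraries with the highest sums, were also those with the highest Jun, Junb and Jund among the uninjured. The part of this list in the members' levels was not tested.

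Markers of other retinal classes were summed in the same way. Amacrine markers, led by Gad1, summed to 52.3 to 179 CPM in uninjured and 56.7 to 148 CPM in injured samples, and Muller glia markers, led by Dkk3, to 114 to 169 and 108 to 137 CPM. Microglia and macrophage markers, led by Cx3cr1, summed to 5.33 to 18.8 and 7.92 to 19.99 CPM, and C1qa, C1qc and Tyrobp had no count in any injured sample, which allows up to 0.638 per 1000000 total UMIs in the shallowest library. Photoreceptor markers, led by Sag, summed to 2.52 to 26.1 and 9.98 to 35.9 CPM, astrocyte markers, led by S100b, to 5.33 to 27.9 and 6.13 to 7.19 CPM, and endothelial markers, led by Pecam1, to 0.680 to 3.03 and 1.61 to 3.14 CPM, with Cldn5 and Cdh5 at 0 in injured samples. Of the genes tested by edgeR, 1 of 6 amacrine, 3 of 5 Muller glia, 1 of 2 microglia and 1 of 2 photoreceptor markers were higher in injured RGCs, 1 Muller glia marker was lower, and 5 of 8 RGC markers were lower and 1 higher. Among all genes tested 21.3% were higher and 22.7% lower, and nothing is read from counts in lists this short. Each of the sums given for these other classes overlapped between the groups, but for 3 of them the overlap rested on the leading gene. Without it, Muller glia markers summed to 40.8 to 57.9 CPM in uninjured and 96.95 to 120 CPM in injured samples, astrocyte markers to 0.280 to 2.70 and 2.92 to 3.49 CPM, and endothelial markers to 0.561 to 2.18 and 0.225 to 0.525 CPM. The part of such cells or genes in the members' levels was not tested. With cells that held UMIs of at least 3 markers of another class left out, the log2 fold change of Atf3 was 9.72 and that of Jun 3.06.

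Atf3 was rare but not absent before injury. It was found in 27 of 1683 uninjured cells (1.604%), 0, 1, 5, 16, 2 and 3 of them in uninjured 1 to 6, with 77 UMIs in all. Of the 27 cells, 19 held a single Atf3 UMI, 8 held at least 2 and 5 held at least 3, and these 5 held 52 of the 77 UMIs. On the whole these were deep cells, with a median of 40760 UMIs, and after thinning to 8000 UMIs 8 of 1654 cells still held Atf3. Only uninjured 3 and 4 had at least 5 such cells, so no test against the other cells was run. A single UMI can come from free RNA in the droplet, and for the 19 cells with 1 UMI this cannot be told apart from expression.

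The members beside Atf3 in these 27 cells were Jun in 23, Junb in 18 and Jund in 27. Fosl2 was in 1, Maff in 4, Mafk in 5 and Fosl1 in 0, which allows up to 11.1%. In all uninjured cells Jun was in 961, Junb in 622 and Jund in 1649 of 1683. In uninjured 4, the library with 16 of the cells, Jun was at 181 CPM in cells with Atf3 and 54.3 CPM in cells without, and Junb at 102 and 18.4 CPM. In uninjured 3, with 5 of the cells, Jun was at 111 and 48.6 CPM and Junb at 10.8 and 17.6 CPM. Of the Junb UMIs in Atf3 cells of uninjured 4, 54 were in 1 cell. In uninjured 5 and 6, with 2 and 3 of the cells, Jun was at 310 and 413 CPM beside Atf3 and at 87.5 and 79.7 CPM without, and Junb at 163 and 192 CPM and at 77.2 and 66.6 CPM. Jun was thus higher beside Atf3 in these 4 libraries and Junb in 3 of them, in few cells and without a test. Single cells held many of these Jun UMIs, 48 in 1 cell of uninjured 4. The 2 cells of uninjured 5 held 18 and 1. In the 1 Atf3 cell of uninjured 2, Jun was at 98.1 CPM, against 55.9 CPM without Atf3, and Junb at 0 against 62.7 CPM. Markers of another retinal class, at least 3 of them, were found in 8 of the 16 Atf3 cells of uninjured 4 (50%), against 22.8% of its other cells, and their part was not tested.

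The cells with the most Atf3 differed in what else they held, and the genes named for them here were chosen after their values were seen. The cell with the most, in uninjured 4, had 64711 UMIs, with 23 of Atf3, 48 of Jun, 54 of Junb, 22 of Fos, 17 of Egr1 and 4 of Maff. It held 184 UMIs of the immediate early list, against a median of 4 in cells of that library without Atf3. It also held 19 UMIs of the amacrine marker Tfap2b, and 10 of the 20 injury response genes. A further cell of uninjured 4, with 68226 UMIs, 2 of Atf3, 15 of Jun and 80 of Fos, was alike in its 125 immediate early UMIs and 12 of Tfap2b.

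Other cells held 10 or 12 of the injury response genes and fewer immediate early UMIs. The second highest cell of uninjured 4, with 13890 UMIs, held 15 of Atf3, 17 of Jun and 1 of Junb. It also held 18 UMIs of Ddit3, 12 of Ecel1, 9 of Tnfrsf12a, 8 of Sox11 and 7 of Creb5, and 12 of the 20 injury response genes, against a median of 5 in cells of its library without Atf3. A cell of uninjured 5 with 2 UMIs of Atf3 held 18 of Jun, 7 of Sox11, 6 of Tnfrsf12a, 5 of Ecel1, 4 of Hrk and 1 of Sprr1a, and also 12 of the 20 genes. Sprr1a was found in only 2 of the 1683 uninjured cells. The highest cell of uninjured 3, with 4 UMIs of Atf3, held 12 of Jun, 12 of Ddit3, 11 of Creb5, 10 of Sox11 and 9 of Atf5, and 10 of the 20 genes, with none of Ecel1 or Hrk. These 3 cells came from 3 libraries and held 12, 12 and 13 immediate early UMIs. The cell of uninjured 4 held its 12 among 13890 UMIs, while cells of that library without Atf3 held a median of 4 early UMIs and of 34049 UMIs in all, so it too was high in these genes for its depth. The cell of uninjured 3 was also high, with 13 among 26949 UMIs against medians of 3 and 31904 in its library's cells without Atf3. For the cell of uninjured 5 the values were 12 among 30238 UMIs, against medians of 6 and 20363. Of the remaining cells with at least 3 Atf3 UMIs, 1 had 7 of Atf3, 1 of Jun and 8 of Sox11, and 1 had 3 of Atf3, 15 of Jun and 10 of Fos. The number of injury response genes alone does not separate the cells, and no kinds of cell are read from them.

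**Figure D5:**
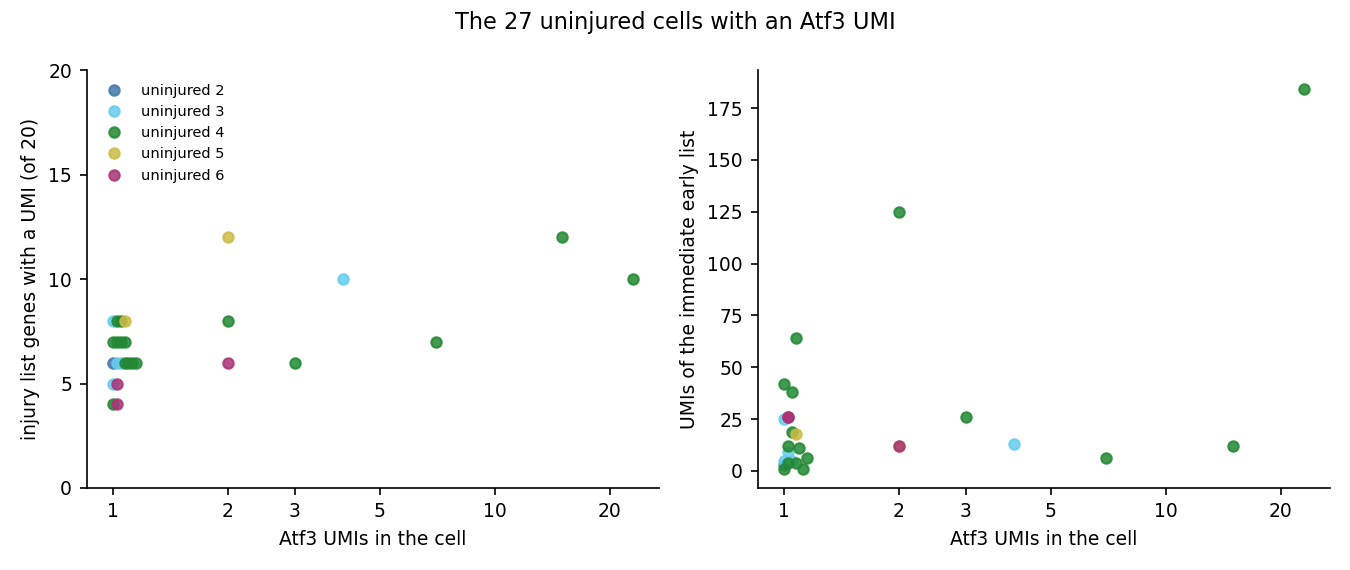
Each uninjured cell with Atf3 (27 cells, coloured by library, points at 1 UMI spread sideways), with its Atf3 UMIs on a log axis against the number of the 20 injury response genes with a UMI (left) and the UMIs of the immediate early list, not scaled to the cell's depth (right). The cell with 23 Atf3 UMIs holds 184 immediate early UMIs and 10 injury genes. The cell with 15 Atf3 UMIs holds 12 injury genes, as does a cell with 2 Atf3 UMIs.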

How the data were processed

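The authors aligned reads to mm39 and, for selected RGCs, deposited the count of UMIs of each gene in each cell, not normalized. The number of injured cells in the files is not the number that the paper gives as selected. The submitters' processing notes name Cell Ranger 7.0.1. Counts were summed per library and injured 3 and 4 averaged. The members and lists were chosen with earlier results of these data known. Genes were tested with edgeR 4.0.16 in R 4.3.3 (filterByExpr, TMM, robust quasi-likelihood, Benjamini-Hochberg at 0.05), and with DESeq2 1.42.0 as an alternative. Both were run on simulated data with independent samples, which cannot show how they control error where libraries are alike in pairs. Cells were read and thinned in Python 3.11.15 (pandas 2.3.3, numpy 2.4.6, scipy 1.17.1). List genes were named if past the threshold with a mean of at least 10 CPM, up to 6 per direction and list by fold change, plus Fos, Ddit3, Atf4, Map3k12, Map3k13 and Sprr1a. Likeness named the 8 highest genes. Limits for a count of 0 are 3 counts, without the TMM factor, and cover counting error alone. The paper's methods name another reagent kit, sequencer and aligner version than the labels, and removal of amacrine cells too. Doublets were not called. The sum of 1 marker list is not reported here. Other experiments of the paper were not analysed here.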

Additional observations from a re-analysis of the deposited data

Results flagged for a closer look

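Among 45 sets of values of the 6 uninjured samples (CPM of the members and named list genes, and members' shares), 3 had a sample far from the other 5, and chance gives about 1 such set in 20. Atf3 was at 2.51 CPM in uninjured 4, set apart by the few cells described above. Fosl2 was at 9.25 CPM in uninjured 2. Sprr1a was at 0.184 CPM in uninjured 5, which is the UMI of 1 cell. The reporter mCherry, outside the comparison and absent from the counts of all uninjured libraries, was found in 7.99%, 15.0%, 86.0% and 84.3% of cells of injured 1 to 4.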

How the results depend on the processing

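Over all genes, 6256 were called by edgeR, and 4181 (similar libraries summed) to 8307 (libraries 1 to 4 with the replicate block) under the alternatives. That block on library number was run only there, since deviations of equally numbered libraries did not go together (correlations -0.0592 to 0.0119), and without the block the count was 8230. Of the members, Atf3, Jun, Jund, Fosl1, Fosl2 and Mafk had a positive log2 fold change in CPM under each alternative in which they could be tested, and Junb changed sign (-0.32 to 0.64). Maff had 0.24 to 0.58, near its SE, with overlapping groups, so no direction is given for it. Its mean share of cells went the other way at 8000 UMIs and unthinned. At 4000 UMIs that share was 1.21% in injured and 1.10% in uninjured samples. Beyond their spread moved Jund, to 1.41 without and 1.37 with the block, Mafk, to 2.58 with thinned cells, and Atf3, to 10.72 without uninjured cells of at least 3 Atf3 UMIs, an alternative added after the data were seen. Counts of list genes moved for bZIP genes lower (7 without the block), JNK genes lower (2 with similar libraries summed, 2 to 4 leaving out a sample), early genes lower (3 to 6 leaving out a sample) and injury genes higher (10 where at least 10 counts in every sample left fewer genes tested). Of the 29 named list genes, Jdp2, Map2k7 and Map3k13 fell short of the threshold in 17 of 602 gene and setting combinations, and the rest kept direction and side. Pairs of members that could be given were 6 thinned to 4000 UMIs or unthinned; unthinned, Atf3 and Junb had 0.37, and Atf3 and Jun had 0.65 at 4000. The injured minus uninjured share, in percentage points, moved unthinned to 39.9 (Jun), -1.75 (Junb), 0.607 (Jund), 4.22 (Fosl1), 12.6 (Fosl2), -1.90 (Maff) and 6.93 (Mafk), and at 4000 to 74.5 (Atf3), 0.457 (Fosl1), 5.18 (Fosl2) and 2.59 (Mafk), as depth changes what is detected. Where no cause is named, it was not tested. With at least 10 counts in every sample, Atf3, Fosl1, Maff and Mafk could not be tested, nor Fosl1 and Maff with thinned cells. The alternatives planned for uninjured cells with Atf3 were not run, as only 2 libraries had at least 5. With 3 injured samples, 1 of them 2 libraries that share cells, and similar pairs among the rest, the independent samples may be fewer than those counted. Xist, mCherry and UMIs per cell differ between the groups, and their part in the differences was not tested.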
